A study of Mus musculus with 3 samples.

Results

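A set of 10 genes that serve the passage of dietary fatty acids from uptake to stored triglyceride, Cd36, Fabp1, Fabp2, Slc27a4, Acsl5, Mogat2, Dgat1, Dgat2, Gpat3 and Plin2, was examined for binding of the estrogen-related receptor ESRRA in mouse duodenal villus cells. A peak was assigned to a gene where the peak midpoint lay within 30 kb of any of its annotated transcript start sites (mouse genome mm9, GENCODE M1). Of the 1639 ESRRA peaks, 15 met this rule, and they lay at 6 of the 10 genes. Fabp1 and Dgat1 had 4 peaks each, Fabp2, Acsl5 and Mogat2 had 2 each, and Dgat2 had 1. Cd36, Slc27a4, Gpat3 and Plin2 had none and were kept as genes without a peak.

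The peaks came from chromatin immunoprecipitation and sequencing (ChIP-seq) with an antibody to ESRRA in wild-type (WT) C57BL/6 mice on regular chow, with 2 ESRRA ChIP libraries and 1 library of input chromatin. The chromatin was that of adult villus cells, kept on a filter that lets the smaller crypts through. The study had no knockout or treated ChIP group, so the comparisons here were between genes and between regions within 1 peak list. That list was called on both ChIP libraries together and held positions only, so neither the height of a peak nor its spread between libraries could be given, and the labelled cell type could not be checked against markers.

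Fatty acids and monoacylglycerol released from dietary fat enter the enterocyte across the brush border, where CD36 and the transport protein FATP4 (Slc27a4) take part in uptake and FABP1 and FABP2 bind fatty acids in the cytosol. ACSL5 joins them to coenzyme A, and MOGAT2 followed by DGAT1 or DGAT2 builds triglyceride from monoacylglycerol, while GPAT3 starts the parallel route from glycerol-3-phosphate. The triglyceride is packed into chylomicrons or held in lipid droplets coated by PLIN2. ESRRA is an orphan nuclear receptor of the estrogen-related receptor (ESRR) family that is known to bind the extended site TCAAGGTCA, and it is best known as a regulator of mitochondrial metabolism.

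Of the 15 peaks, 6 held AAGGTCA, the core of that site, on either strand, and 5 of these are shown because they are places where a peak at these genes and the receptor's site coincide. Each line gives 101 bases of mm9, read 5' to 3' on the strand of the site, with the core and the 2 bases before it in capitals.
Fabp1 peak 2, intron 1, chr6:71151344-71151444, plus strand: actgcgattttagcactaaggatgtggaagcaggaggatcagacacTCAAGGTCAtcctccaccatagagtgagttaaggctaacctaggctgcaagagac
Acsl5 peak 2, intron 1, chr19:55332196-55332296, minus strand: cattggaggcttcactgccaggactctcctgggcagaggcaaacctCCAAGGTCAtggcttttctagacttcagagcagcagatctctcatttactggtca
Dgat1 peak 1, intron 1, near the start site, chr15:76341786-76341886, minus strand: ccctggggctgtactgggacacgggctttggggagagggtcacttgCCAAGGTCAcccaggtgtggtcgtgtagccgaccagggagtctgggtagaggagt
Dgat1 peak 4, downstream, within Hsf1, chr15:76328727-76328827, minus strand: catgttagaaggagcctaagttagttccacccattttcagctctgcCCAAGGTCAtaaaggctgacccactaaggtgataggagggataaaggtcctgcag
Dgat2 peak 1, intron 4, chr7:106310152-106310252, plus strand: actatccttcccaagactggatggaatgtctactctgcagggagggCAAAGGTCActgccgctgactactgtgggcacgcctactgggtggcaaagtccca

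The 5 sites differed in the bases before the core. CC preceded it in 3 of them, at Acsl5 and in 2 peaks of Dgat1, and TC and CA preceded it once each, at Fabp1 and Dgat2. The single TC, which makes the full TCAAGGTCA, was that of Fabp1 peak 2. In the 995 core sites of single-copy peaks with both preceding bases inside the peak, TC was the most frequent pair at 32.1% and CC made up 19.0%. The site of Dgat1 peak 4 lay at the midpoint of the peak (0 bp) and that of Acsl5 peak 2 lay 29 bp away. The sites of Dgat1 peak 1, Dgat2 peak 1 and Fabp1 peak 2 lay farther out, at 85, 106 and 202 bp. Among these 5 the full site was thus the one farthest from the centre of its peak. By the position of the core itself, 3 of all 6 cores in the 15 peaks lay within 50 bp of the midpoint, beside 357 of 996 (35.8%) in single-copy peaks, and the median distance was 57.0 bp beside 80.0 bp.

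Counted from 1 at the 5' end of TCAAGGTCA, the CC sites differed from it by T1C. A further 4 peaks held a site with 1 mismatch inside the core, and the pair that lay near a midpoint are shown, with the 9 bases in capitals.
Fabp1 peak 1, intron 1, near the start site, chr6:71150224-71150324, plus strand: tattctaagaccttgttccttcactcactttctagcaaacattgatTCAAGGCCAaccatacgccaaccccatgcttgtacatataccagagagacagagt
Dgat1 peak 2, intron 2, chr15:76336358-76336458, plus strand: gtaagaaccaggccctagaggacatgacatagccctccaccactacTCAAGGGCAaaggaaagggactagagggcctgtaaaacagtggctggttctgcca

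In Fabp1 peak 1 the change was T7C, 23 bp from the midpoint, and in Dgat1 peak 2 it was T7G, 35 bp from the midpoint. The near matches of Fabp1 peak 3 (A4T) and Acsl5 peak 1 (A4G) lay toward the peak ends, at 284 and 240 bp. Counting at most 1 mismatch, 8 of the 15 peaks held a match (53.3%, 95% Wilson interval 30.1% to 75.2%), beside 46.3% of all 1639 peaks, 55.1% of single-copy peaks and 19.4% of 3074 flanking windows of the same width placed 2 kb to either side of peaks. The fewest mismatches were 2 in 5 peaks and 3 in another 2 peaks. All Wilson intervals given here cover counting error between peaks, or between genes, only.

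**Figure D1:**
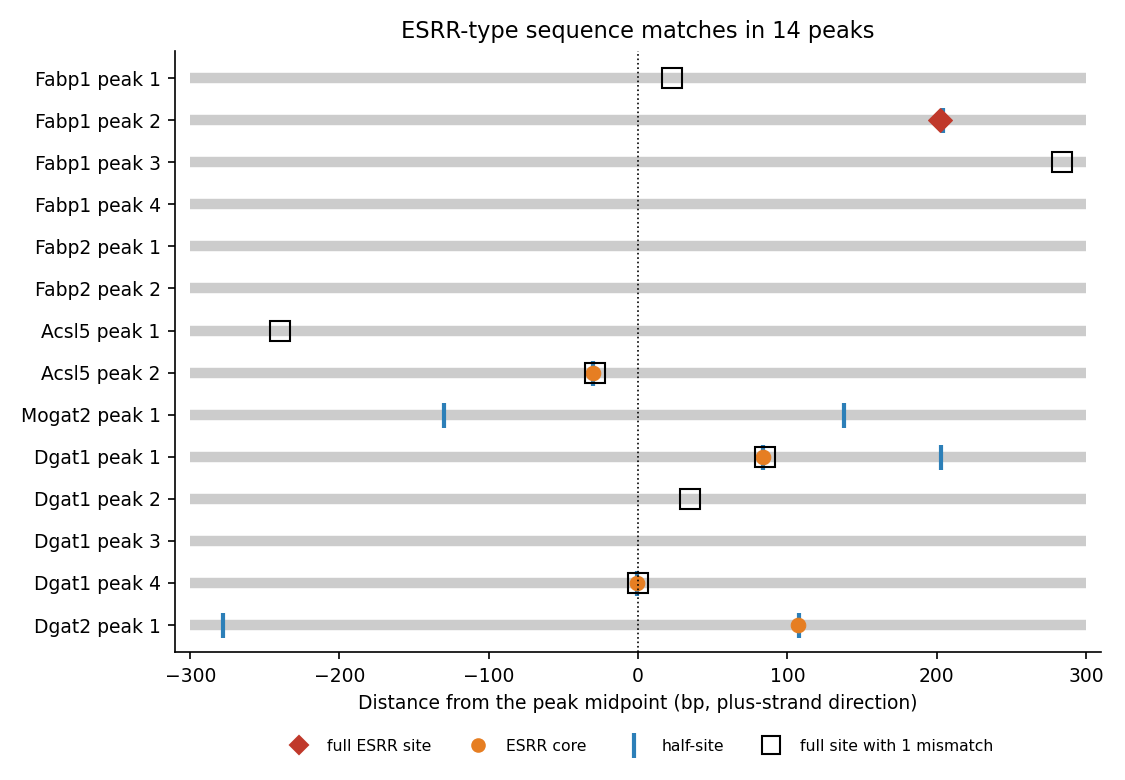
Positions of ESRR-type matches in 14 of the 15 peaks, in bp from the peak midpoint along the plus strand, with 1 grey bar per 601 bp peak, diamonds for the full site, circles for the core, ticks for the hexamer AGGTCA and squares for the full site with 1 mismatch. Acsl5 peak 2 and Dgat1 peak 4 have a core within 50 bp of the midpoint, and both Fabp2 peaks, Fabp1 peak 4 and Dgat1 peak 3 hold none of these matches.

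Among the proteins of uptake and binding, Fabp1 and Fabp2 had peaks and Cd36 and Slc27a4 did not. Fabp1, which encodes the liver-type fatty acid-binding protein, lies on chromosome 6 (71149821 to 71155017, plus strand) and spans 5197 bp. Its 4 peaks followed each other at 430, 1371, 4220 and 6495 bp downstream of the start site. The spacing between neighbours was 941, 2849 and 2275 bp, so that the peaks were spread, with gaps, from just downstream of the start site to beyond the 3' end. The first 2 midpoints (chr6:71149951-71150551 and chr6:71150892-71151492) lay in intron 1 and the third (chr6:71153741-71154341) in intron 3. The fourth (chr6:71156016-71156616) was intergenic. The other protein-coding gene with a start site within 30 kb of these peaks was Smyd1, and it was 10552 bp or more away from each of them.

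Fabp2, the intestinal fatty acid-binding protein gene on chromosome 3 (122597990 to 122602424, plus strand), had a peak in intron 2 at 3569 bp (chr3:122601259-122601859) and one beyond the 3' end at 6023 bp (chr3:122603713-122604313). Both midpoints also lay within 4933405D12Rik, an annotated gene that overlaps Fabp2. Neither peak held AGGTCA, the hexamer bound by many nuclear receptors, and their fewest mismatches to TCAAGGTCA were 2 and 3. The second of them was built of repeated sequence more than the other peaks described: its 24-base words had a median of 10 copies in the genome, at the limit above which a peak was called multi-copy, while the other 14 peaks had a median of 1.

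Cd36, a scavenger receptor that binds long-chain fatty acids (chromosome 5, 17287508 to 17394777, minus strand), had its nearest peak 2222 kb from a start site. For Slc27a4 (chromosome 2, 29658154 to 29673042, plus strand) the distance was 365 kb. A peak as near or nearer was found for 87.6% of all protein-coding genes in the case of Cd36 and for 44.9% in the case of Slc27a4.

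Acsl5, the acyl-CoA synthetase of the set, lies on chromosome 19 (55327859 to 55371117, plus strand). Measured from the start of each gene's coding transcript as drawn on the map of peaks by gene, it had the only upstream peak among the 15, at 5408 bp (chr19:55322151-55322751), and a second at 4416 bp inside intron 1 (chr19:55331975-55332575), which carries the core site shown. The upstream peak was intergenic and held AGATAA but no AGGTCA.

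Of the genes for triglyceride synthesis, Dgat1, Dgat2 and Mogat2 had peaks and Gpat3 had none. Dgat1, which encodes an enzyme of the final acylation step, lies on chromosome 15 (76332445 to 76342381, minus strand) and had 4 peaks along 9937 bp of gene and the sequence beyond it. From the coding start site the midpoints lay at 630, 6008, 10721 and 13604 bp. Dgat1 peak 1 (chr15:76341451-76342051) was in intron 1 and peak 2 (chr15:76336073-76336673) in intron 2, 662 bp from the start of a shorter protein-coding transcript, so that both counted as promoter peaks. The midpoint of peak 3 (chr15:76331360-76331960) fell between genes. That of peak 4 (chr15:76328477-76329077) fell in an intron of Hsf1, which encodes a heat shock transcription factor. Of the 601 bases of each, 43 in peak 3 and 365 in peak 4 lay in annotated exons. The annotated start of Hsf1 lay 20902 bp from peak 4, and a Dgat1 start site, that of a retained-intron transcript, lay 4833 bp from it. Peaks 1 and 4, the outer pair, held the core CCAAGGTCA, while the inner pair did not hold AGGTCA.

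Dgat2 encodes the other acyltransferase of this step and is unrelated in sequence to DGAT1. Its gene and that of Mogat2 lie side by side on chromosome 7, both on the minus strand (106302173 to 106331223 for Dgat2, 106367594 to 106387129 for Mogat2), with start sites 55906 bp apart and 36371 bp between the genes. Dgat2 had 1 peak, in intron 4 at 21127 bp (chr7:106309796-106310396), and this was the peak whose nearest coding start was not that of a gene in the set: the start of Uvrag, an autophagy gene, was at 20442 bp. Mogat2, the monoacylglycerol acyltransferase gene, had a peak in intron 2 at 8579 bp from its nearest start site (chr7:106378225-106378825) and one downstream at 23206 bp. Mogat2 peak 1 held AGGTCA at 2 places without the core.

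Mogat2 peak 2 lies between both genes and was the peak closest to the 30 kb limit. It was 23206 bp from Mogat2, the farthest of the assigned distances, and 32675 bp from Dgat2, the nearest of those outside it. With a limit of 50 kb, Dgat2 would have 3 peaks, since both Mogat2 peaks would then count for it as well. At 10 kb Dgat2 would have none, and Mogat2 would have 1.

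Gpat3 (Agpat9 in the annotation, chromosome 5, 101274732 to 101328121, plus strand) had its nearest peak at 277 kb, and 38.3% of protein-coding genes had one as near. Plin2, the droplet coat gene (chromosome 4, 86294290 to 86315964, minus strand), had its nearest peak at 1009 kb, and 71.1% of genes had one as near. None of the 4 genes without a peak within 30 kb had one within 100 kb either.

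**Figure D2:**
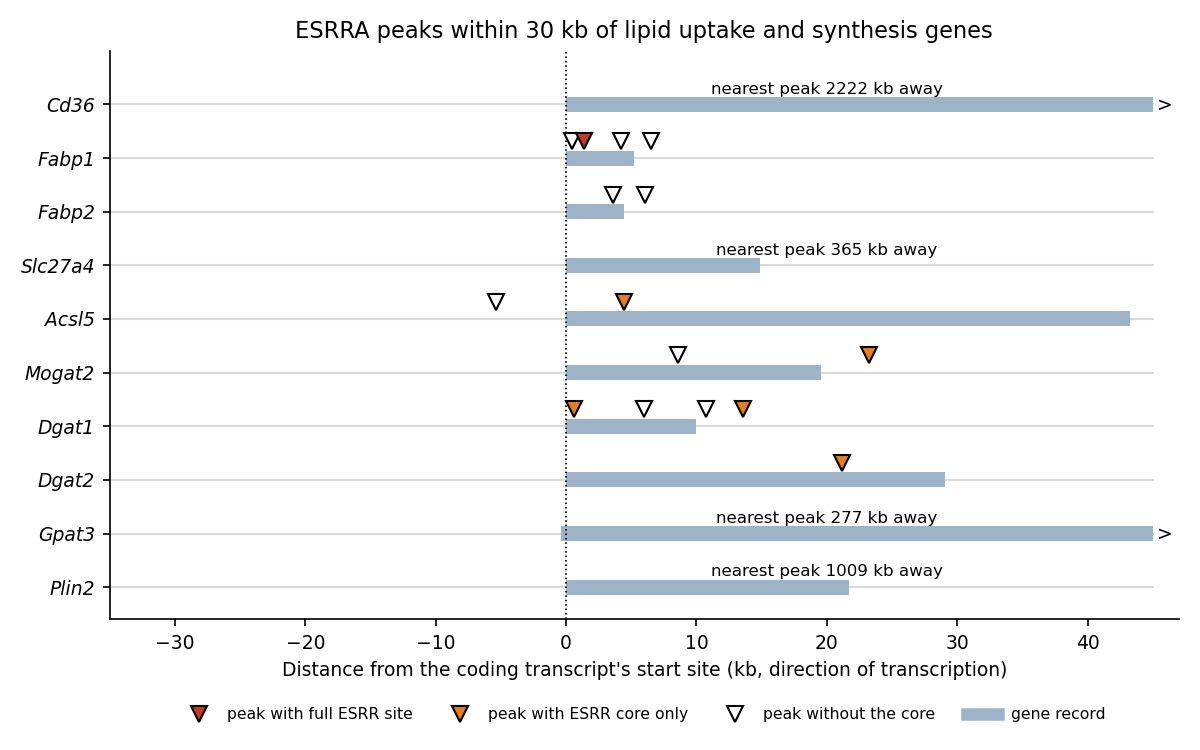
Peak midpoints at each gene, in kb from the start of its coding transcript and turned to the direction of transcription, with the gene record as a bar, red for a peak with the full ESRR site, orange for the core alone and white for neither. The markers lie at or downstream of the start site in all but 1 peak, the one at 5408 bp upstream of Acsl5.

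A peak within 30 kb was present at 6 of the 10 genes (60.0%, 95% Wilson interval 31.3% to 83.2%), beside 1954 of all 22225 protein-coding genes (8.79%). Within 10 kb the count was 5 of 10 beside 4.66%, and within 1 kb it was 2 of 10, Fabp1 and Dgat1, beside 2.09%. At 2 kb it was again 2 (2.51% of all genes), and at 5 kb it was 4 (3.39%), with Fabp2 and Acsl5. At least 2 peaks were found at 5 of the 10 genes, beside 2.06% of all genes, and 4 or more at 2 of the 10, beside 0.364%. The median distance to the nearest peak was 14.9 kb over the 10 genes and 446 kb over all protein-coding genes. These counts rest on few genes, and with a single pooled peak list no error between libraries could be set on them. The 10 genes were also chosen with earlier results of these data known.

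The 30 kb limit splits the 10 genes by this distance into those with a near peak and those without. The 6 with peaks ran from 430 bp (Fabp1) through 630 (Dgat1), 3569 (Fabp2), 4416 (Acsl5) and 8579 (Mogat2) to 21127 bp (Dgat2), where between 1.39% and 7.0% of all genes had a peak as near. The 4 without ran from 277 kb to 2222 kb, and no gene of the set lay between 21.1 and 277 kb. Over all genes 7.0% had a peak within the first of these distances and 38.3% within the second, so other genes did lie between them.

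**Figure D3:**
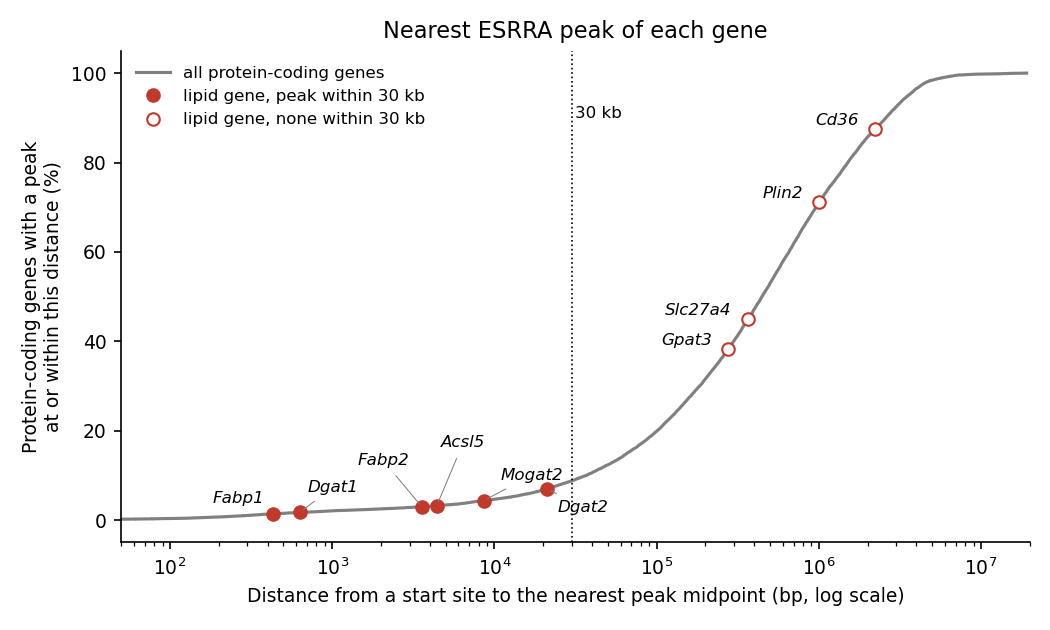
Share of protein-coding genes with a peak at or within a given distance of a start site, in percent against distance in bp on a log scale, with filled circles for the 6 genes with a peak within 30 kb and open circles for the 4 without. The filled circles sit at 7.0% or below and the open circles at 38.3% or above. The 30 kb limit itself keeps filled circles at or below 8.79%.

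The position of the 15 peaks in genes is a description, since the 30 kb rule chose them by their distance from a start site and so partly sets these shares. In 9 of them the midpoint was in an intron of the gene's own coding transcript, 5 were downstream of it and 1 was upstream. Classed over all annotated genes, 3 were promoter peaks (20.0%, beside 29.8% of all peaks), 8 were intronic (53.3%, beside 29.2%) and 4 were intergenic (26.7%, beside 35.3%). Copy number and GC content were not used by the rule. All 15 were single-copy by the limit of 10 copies, whereas 324 of the 1639 peaks (19.8%) were multi-copy. Their GC content had a median of 48.4% and ran from 40.4% in Fabp2 peak 1 to 58.1% in Dgat1 peak 1, beside a median of 48.8% over all peaks. Another peak lay within 30 kb of 14 of the 15, beside 596 of all 1639 (36.4%), and the exception was Dgat2 peak 1. The rule partly sets this share, since it gathers peaks around the same start sites.

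The core AAGGTCA was present in 6 of the 15 peaks (40.0%, 95% Wilson interval 19.8% to 64.3%), in 44.0% of all peaks and in 12.6% of the flanking windows. The interval of the 15 peaks held the value of all peaks and not that of the flanks. It counts peaks at the same gene as independent. In the 26 flanking windows of these 15 peaks alone the core share was 7.69% (2.14% to 24.1%), an interval that overlapped theirs. The full TCAAGGTCA was present in 1 of 15 (6.67%, 1.19% to 29.8%), in 14.3% of all peaks and in 1.59% of flanks. The hexamer AGGTCA, which is contained in both, was present in 7 of 15 (46.7%, 24.8% to 69.9%), beside 61.4% and 34.2%. For the full site and the hexamer, the interval of the 15 peaks held both the value of all peaks and that of the flanks. Among single-copy peaks, the kind to which the 15 belong, the shares were 51.4% for the core, 17.7% for the full site and 69.9% for the hexamer.

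Sites of other factors of the intestinal epithelium were searched on both strands in the same peaks. The GATA factor site AGATAA was in 5 of the 15 (33.3%, beside 27.5% of all peaks and 27.8% of flanks): Fabp1 peaks 1 and 2, Acsl5 peak 1, Dgat1 peak 3 and Dgat2 peak 1. The CDX site TTTATNG was in 3 (20.0%, beside 25.4% and 26.7%), and all 3 were Fabp1 peaks. The KLF site CCACNCCC was in Fabp1 peaks 2 and 3 and in Dgat1 peak 1, where 2 overlapping matches lay 82 and 75 bp from the midpoint (20.0%, beside 20.9% and 16.4%). The AP-1 site TGANTCA was in Fabp1 peak 1 (6.67%, beside 17.4% of all peaks), and its letters overlapped those of the near match shown for that peak. The HNF4 site CAAAGTCCA, the CREB site TGACGTCA, the ETS site CCGGAAGT, the direct repeat DR1 of the hexamer and the reversed ESRR site ACTGGAACT, searched as a control, were in 0 of the 15, where a count of 0 leaves an upper Wilson bound of 20.4%. Over all peaks these shares were 2.56%, 1.16%, 2.56%, 0.366% and 0.427% in the same order, so that 15 peaks could not show a lower share.

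**Figure D4:**
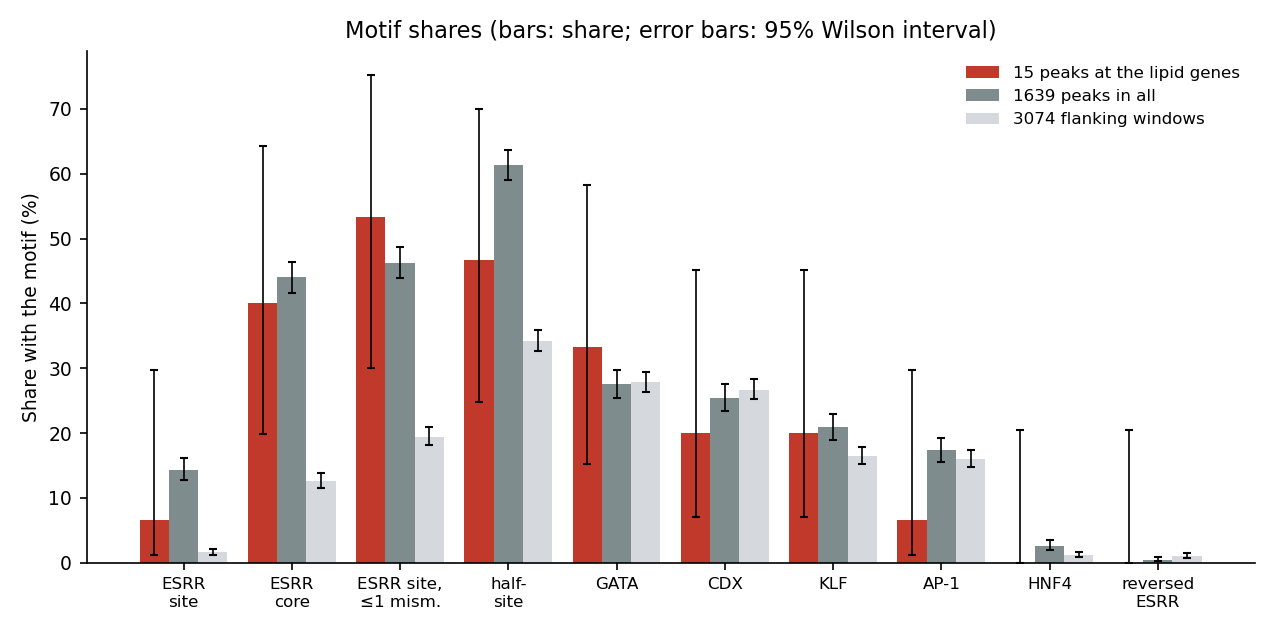
Share of regions with each motif, in percent with 95% Wilson intervals, in the 15 peaks at the lipid genes, all 1639 peaks and 3074 flanking windows. For the ESRR core the bars stand at 40.0%, 44.0% and 12.6%.

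The letters of the full ESRR site were also read from the genome around all 10 genes, whether or not a peak lay there. Within 30 kb of their start sites, 21 copies of TCAAGGTCA were found, of which 1, in Fabp1 peak 2, was in a peak. Over the genome 316 of 56617 copies (0.558%) were in a peak, and 80.4% of protein-coding genes had a copy within 30 kb, with a median of 2.00 copies per gene. Slc27a4 had 7 copies, Dgat2 and Plin2 had 3 each, Acsl5 and Dgat1 had 2 each, and Cd36, Fabp2 and Mogat2 had 1 each besides that of Fabp1. Gpat3 had 0 within 30 kb and its nearest copy at 37496 bp.

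Of the 4 genes without a peak, all but Gpat3 thus had the full site nearby, and the copy nearest to a start site of each is shown, since these carry the letters without a called peak. They lay 6663 bp from a start of Cd36, 8020 bp from Slc27a4 and 2727 bp from Plin2 (mm9, the 9 bases in capitals).
Cd36 site without a called peak, intron, chr5:17348897-17348997, minus strand: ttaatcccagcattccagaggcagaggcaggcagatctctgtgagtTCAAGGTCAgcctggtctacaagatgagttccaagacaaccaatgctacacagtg
Slc27a4 site without a called peak, upstream, at the promoter of Coq4, chr2:29650084-29650184, minus strand: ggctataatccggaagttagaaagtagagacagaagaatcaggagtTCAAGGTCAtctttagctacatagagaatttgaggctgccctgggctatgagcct
Plin2 site without a called peak, intron, chr4:86308852-86308952, plus strand: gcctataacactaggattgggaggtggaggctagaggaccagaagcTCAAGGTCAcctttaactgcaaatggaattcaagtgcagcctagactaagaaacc

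The sequence around these copies was repeated to differing degrees. Among the 16-base words that hold the whole site, the most frequent occurred 3609 times in the genome for the Cd36 site, 1280 times for the Slc27a4 site and 64 times for the Plin2 site. At the full site of Fabp1 peak 2 the number was 55, close to that of the Plin2 site. A word of more than 100 copies held 36.9% of all TCAAGGTCA in the genome and 20.9% of the 316 in peaks. Repeated sequence limits the unique alignment of reads, and its part in the lack of a peak at these 3 sites was not tested.

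Promoter sequences of RefSeq (GRCm38.p6, 250 bases before to 50 after the start) were at hand for 7 of the 10 genes, all but Mogat2, Dgat1 and Dgat2. None of the 7 held AAGGTCA, which was in 5.38% of all 27025 promoters. AGGTCA was in the promoters of Cd36, Fabp1 and Plin2 (18.1% of all promoters). TTTATNG was in those of both binding-protein genes, Fabp1 and Fabp2 (12.5% of all), and CCACNCCC in those of Slc27a4, Acsl5, Gpat3 and Plin2 (19.7% of all). The promoters of Cd36 and Plin2 thus held the hexamer, and neither gene had a peak within 100 kb.

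A smaller share of the other genes listed for the same steps had a peak, though all lists were chosen with earlier results of these data known. Of 48 further genes of uptake, activation, synthesis and droplet storage, 6 had a peak within 30 kb (12.5%, 95% Wilson interval 5.86% to 24.7%, beside 8.79% of all protein-coding genes). In the uptake and binding list these were 3 of 15. Npc1l1, the cholesterol uptake protein of the brush border, had 2 peaks, the nearer at 6710 bp, the scavenger receptor gene Scarb1 had 1 at 23960 bp upstream, and the peak near Fabp7 lay 212 bp from the start of Smpdl3a. Of the 5 other acyl-CoA synthetases listed none had a peak, so that Acsl5 alone did among the 6 examined. Acsm5, a synthetase gene outside the list, had a peak at 10090 bp. In triglyceride synthesis 2 of 12 had one, and both carried the full TCAAGGTCA in the nearest peak: Agpat2, which acylates lysophosphatidic acid, at 2797 bp, and Lpin3, a phosphatidic acid phosphatase gene, 254 bp upstream of its start. Of 16 droplet and lipolysis genes, Plin3 had peaks within 30 kb, the nearest of which lay 542 bp from the start of Ticam1.

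For the step that follows triglyceride synthesis, the assembly of chylomicrons, 10 of 15 genes had a peak within 30 kb (66.7%, 41.7% to 84.8%), and for mitochondrial fatty acid oxidation, the other fate of an acyl-CoA, 5 of 20 did (25.0%, 11.2% to 46.9%). The chylomicron genes were Apob, Mttp, Apoa1, Apoa4, Apoa5, Apoc2, Apoc3, Apoe, Tm6sf2 and Creb3l3, with nearest peaks between 38 bp (Apoc3) and 25310 bp (Apoa5), and neighbours among them shared peaks. The oxidation genes were Acadm at 216 bp, Etfa at 149 bp, Hadha and Hadhb, which shared 1 peak at 2479 and 2765 bp, and Echs1 at 10689 bp. The nearest peak of Echs1 lay 2 bp from the start of another gene, 1810014F10Rik. None of these peaks was among the 15 at the uptake and synthesis genes. The 18 peaks at chylomicron genes held the core in 5 (27.8%) and were promoter peaks in 8 (44.4%), beside 40.0% and 20.0% of the 15. The 6 peaks at oxidation genes held the core in 3 (50.0%) and were promoter peaks in 3 (50.0%). Both lists had wide intervals that overlapped those of the 10 genes, and the intervals count genes that share a peak as independent.

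**Figure D5:**
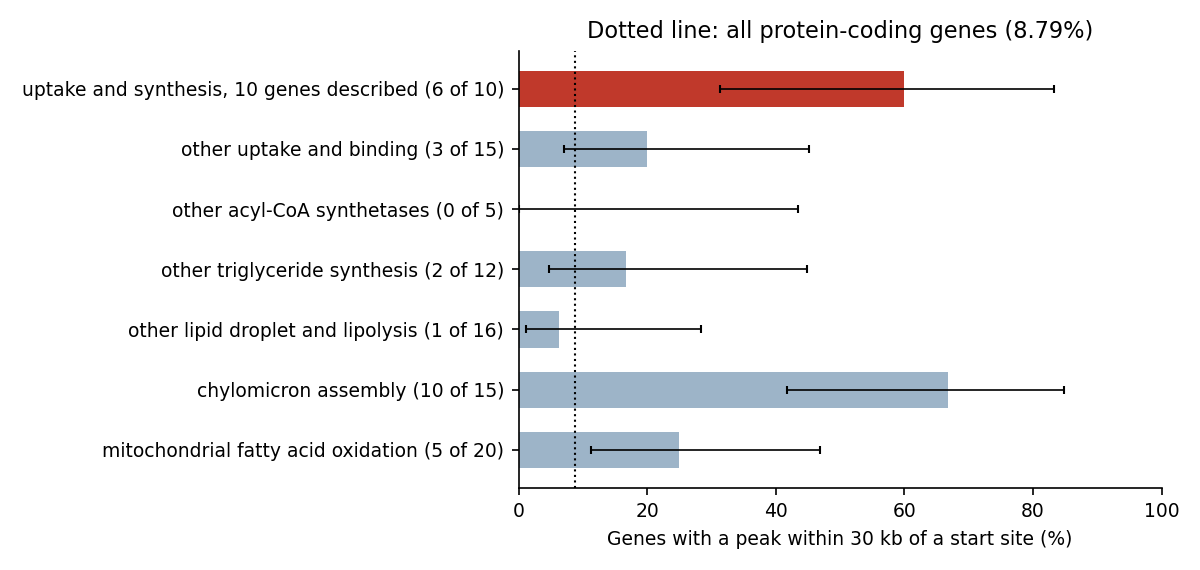
Share of genes with a peak within 30 kb of a start site, in percent with 95% Wilson intervals, for the 10 genes described, the further genes of each step and the lists for chylomicron assembly and fatty acid oxidation. The dotted line is the 8.79% of all protein-coding genes. The intervals of the 10 genes and of the chylomicron genes lie above it, as does that of fatty acid oxidation from 11.2%. The intervals count genes as independent, also those that share a peak, such as Hadha and Hadhb or Apoa4 and Apoa5. All lists were also chosen with earlier results of these data known, so the intervals cannot place any list above the line.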

How the data were processed

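The authors aligned paired-end ChIP-seq reads to mm9, merged both ESRRA ChIP libraries and called peaks with MACS2 at a p-value of 1e-05. The submitters' processing notes name Bowtie2 2.2.6, SAMtools 0.1.19, deepTools 2.4.2 and FastQC 0.11.3. The deposited table held the start and end position of each peak in base pairs and no score. All 1639 peaks were 601 bp wide, and how they came to have 1 width is not given in the sources used here. Read depth per library cannot be read from such a list, and pooling hides peaks present in 1 library.

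Positions were set against NCBI build 37 (mm9) with GENCODE M1 in Python 3.11.15 (numpy 2.4.6, scipy 1.17.1, pysam 0.24.0, numba 0.67.0, matplotlib 3.10.9), and coordinates are counted from 1. Distances ran from a peak midpoint to the nearest of all transcript start sites, and a promoter peak lay within 1 kb of one. A peak was multi-copy where its 24-base words had a median of more than 10 copies, counted on both strands. Motif searches took exact matches on either strand. The functions were checked on simulated data. No test was run, since 1 pooled list has no error between samples. The names Gpat3, Gpat4 and Hilpda were matched as Agpat9, Agpat6 and 2310016C08Rik, and Mia3 was not found in the annotation.

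The genes, lists and motifs were chosen with earlier results of these data known. All 10 genes are named with each peak within 30 kb, or their nearest peak, and of the further lists each gene with a peak within 30 kb is named. The count of ESRR sites outside called peaks, the promoter search and the copy number of 16-base words were added after seeing the data. The sequence of 1 site is not reported here.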

Additional observations from a re-analysis of the deposited data

How the results depend on the processing

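Of 36 alternatives, 32 left a count within 1.5 times its value, or a share within its interval. The share of the 15 peaks with AAGGTCA, 40.0%, fell to 6.67% with TCAAGGTCA and to 6.67% with TNAAGGTCA. Both longer motifs contain AAGGTCA, so the share could only stay or fall. Over all peaks it fell from 44.0% to 14.3% and 20.4%. The genes with a peak within 1 kb, 2, became 4 at 5 kb. The further pathway genes with a peak, 6, became 14 at 100 kb, an alternative added after seeing the data. At 10 kb, 5 genes, 13 peaks and a core share of 30.8% were left. The distance, start site and copy number alternatives left 5 or 6 genes with a peak. No paired analysis was possible because the peak list pools both libraries. Leaving out either ChIP library and a stricter peak threshold were not run, since they need peaks per library and a score per peak. Depth is unknown from this list, so a gene without a peak is one with none called.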
